A study of Danio rerio with 20 samples.

Results

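Glutamine is turned into glutamate and ammonia by glutaminases, and glutamate can enter the tricarboxylic acid cycle as α-ketoglutarate. In the GABA shunt, which runs mainly in neurons, glutamate decarboxylase makes the inhibitory transmitter GABA from glutamate, GABA transaminase converts GABA to succinic semialdehyde, and succinate semialdehyde dehydrogenase oxidises the latter to succinate. In mammals, GLS2 is the glutaminase typical of the liver. The 4 genes examined here encode enzymes of these steps in zebrafish: the glutaminases *gls2* (ENSDARG00000069095) and *glsb* (ENSDARG00000040705), the glutamate decarboxylase *gad1a* (ENSDARG00000093411) and the succinate semialdehyde dehydrogenase *aldh5a1* (ENSDARG00000076544). All 4 of 4 were found among the 32512 genes of the count table and all passed the filters on low counts. They were chosen by name from the genes the study had grouped by their daily pattern in the untreated libraries, *gls2* and *glsb* from groups in which the cortisol-deficient mutant differed and *gad1a* and *aldh5a1* from the group with 1 common rhythm. Since they were selected on these untreated libraries, their untreated differences and rhythms are given below as descriptions without a test. The study also reported *gls2* as restored by the synthetic glucocorticoid dexamethasone, so its values under that treatment are no independent support either.

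RNA was sequenced from pools of 30 whole zebrafish larvae at 5 days post fertilization (dpf), raised in cycles of 12 h of light and 12 h of darkness and sampled at ZT3, ZT9, ZT15 and ZT21, where Zeitgeber time (ZT) counts hours after lights on. The 5 conditions were wild-type larvae, *rx3 weak* mutants (homozygous for the t25181 allele, eyeless with normal cortisol), *rx3 strong* mutants (homozygous for t25327, eyeless, with few corticotropes and little cortisol), and wild-type and *rx3 strong* larvae kept in 25 µM of the synthetic glucocorticoid dexamethasone (DEX). By the methods the wild-type larvae were siblings of mutants, sorted apart at 1 dpf out of pooled clutches. The labels call the first 12 libraries untreated, whereas the column names and methods give them the DMSO vehicle, and the strain is given as mixed TU, AB and WIK in the labels and as AB in the methods. Each condition and time point had 1 library, so that the 4 time points of a condition took the place of replicates and time was a factor in every comparison of genotypes. P-values therefore measured the spread left after time and genotype, not the spread between clutches. All 8 DEX libraries were labelled with another library kit than the 12 untreated ones, whereas the methods name a single kit. By the labels, then, an effect of DEX on a level and an effect of the kit cannot be told apart.

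The libraries held 16427280 to 22204708 counted reads without DEX and 12586879 to 49738048 with DEX, the lowest in wild-type larvae at ZT3. Levels are given as CPM, the count scaled to 1000000 reads of a library after TMM scaling, which equalises the libraries on the bulk of their genes. The targeted gene *rx3* lay between 4.1 and 6.62 CPM in wild-type, 1.66 and 2.35 in *rx3 weak* and 1.95 and 2.89 in *rx3 strong* larvae. All 5 photoreceptor markers were lower in both mutants, with a sum of 699.8 to 1103.2 CPM in wild-type, 46.1 to 85.2 in *rx3 weak* and 12.2 to 20.0 in *rx3 strong*. All 4 glucocorticoid-responsive genes examined were lower in untreated *rx3 strong*, with a sum of 178.7 to 218.5 CPM against 261.0 to 478.6 in wild-type, and reached 1517.0 to 2350.6 CPM in the 8 DEX libraries. Over all genes 10.2% were lower in *rx3 strong* and 7.63% in *rx3 weak*. Under DEX *klf9* was still lower in *rx3 strong* (-0.57 ± 0.13 log2 units, SE, edgeR adjusted p = 0.0295), and the other 3 did not pass. Some planned markers, among them *per1a*, were left out because their names could not be matched clearly. The sum of 5 neuronal markers was lower in every DEX library (433.6 to 956.1 CPM) than in every untreated one (1109.9 to 1499.3 CPM). The share of all genes apart between DEX and untreated libraries was not computed, and by the labels the kit differed as well. The 2 muscle markers summed to 5234.7 to 13109.2 CPM with DEX and to 3959.5 to 6106.5 CPM without.

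The liver-type glutaminase *gls2* was lower in *rx3 strong* than in wild-type larvae at each of the 4 time points. In wild-type larvae it stood at 24.4 CPM at ZT3, 14.8 at ZT9, 4.19 at ZT15 and 16.2 at ZT21. In *rx3 strong* mutants the values were 6.26, 3.95, 1.79 and 3.51 CPM in the same order. The lowest wild-type level, at ZT15, lay below the *rx3 strong* level of ZT3, so the groups overlapped across times. The difference was 3.89-fold at ZT3, 3.76-fold at ZT9, 2.34-fold at ZT15 and 4.61-fold at ZT21, with a fitted log2 difference of -1.90 ± 0.14 (SE, 4 against 4 libraries). Behind these values stood 84 to 487 reads in wild-type and 38 to 115 in *rx3 strong*. The 38 reads at ZT15 have a 95% Poisson interval of 26.9 to 52.2 reads, which covers counting error only. Across all genes tested by edgeR's quasi-likelihood test, 8.4% were higher and 10.2% lower in *rx3 strong* than in wild-type at an adjusted p under 0.05, and in 15.1% of genes with a mean of at least 10 reads the 4 libraries of one genotype lay above all 4 of the other. These libraries are whole larvae, in which fewer cells of a type and less RNA per cell cannot be told apart. The 6 liver markers summed to 4656.3 to 5124.0 CPM in *rx3 strong* and to 2927.8 to 3971.9 CPM in wild-type. By the edgeR test 3 of them were higher in the mutant, 3 did not pass and none was lower. Their part in the difference of *gls2* was not tested.

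**Figure D1:**
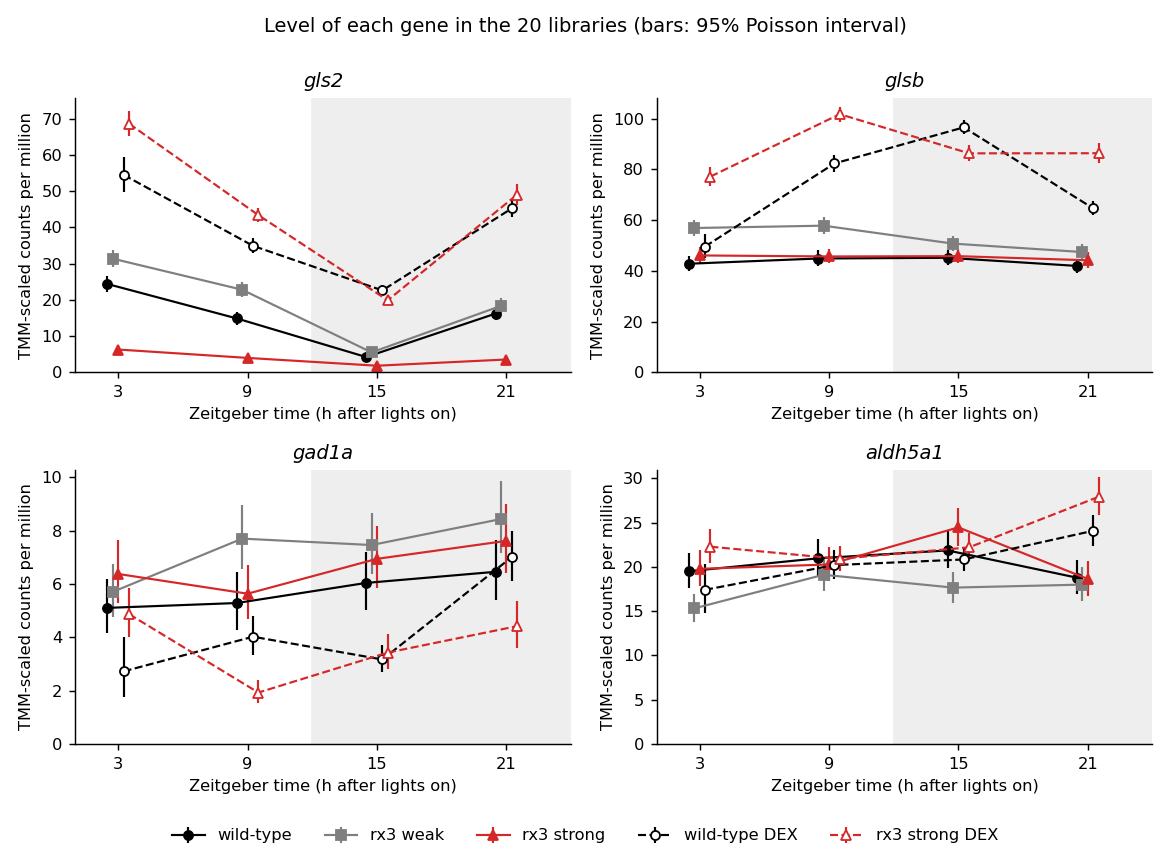
TMM-scaled CPM of *gls2*, *glsb*, *gad1a* and *aldh5a1* (y axes) against Zeitgeber time (x axes, dark phase shaded), 1 point per library, with bars for the 95% Poisson interval of the count. Untreated *rx3 strong* libraries lie between 1.79 and 6.26 CPM for *gls2*, below the wild-type library of the same time, and both DEX series lie between 19.9 and 68.6 CPM.

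The equally eyeless *rx3 weak* mutants did not share the low level of *gls2*. Their values were 31.3 CPM at ZT3, 22.8 at ZT9, 5.47 at ZT15 and 18.3 at ZT21, each above the wild-type library of the same time. The fitted log2 difference from wild-type was 0.38 ± 0.12 (SE), and that of *rx3 strong* from *rx3 weak* was -2.28. At matched times *gls2* was 5.0-fold lower in *rx3 strong* than in *rx3 weak* at ZT3, 5.77-fold at ZT9, 3.05-fold at ZT15 and 5.22-fold at ZT21. Over all genes, 6.42% were higher and 7.63% lower in *rx3 weak* than in wild-type, and 4.68% were higher and 7.08% lower in *rx3 strong* than in *rx3 weak*. Of genes with a mean of at least 10 reads, 13.4% did not overlap between *rx3 weak* and wild-type.

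The daily course of *gls2* had its highest library at ZT3 and its lowest at ZT15 in all 5 conditions. In untreated wild-type larvae the highest level was 5.81 times the lowest, in *rx3 weak* 5.73 times and in *rx3 strong* 3.49 times. A 24 h cosine fitted to variance-stabilised values gave a peak-to-trough difference of 2.07 log2 units in wild-type, 2.13 in *rx3 weak* and 1.15 in *rx3 strong*, each ± 0.55 (SE from the pooled residual, 1 residual degree of freedom per genotype). The fitted peaks were close in time, at 2.8 h, 3.5 h and 3.4 h after lights on. The variance-stabilising scale compresses low values. On log2 CPM the peak-to-trough difference was 2.55 in wild-type, 2.54 in *rx3 weak* and 1.81 in *rx3 strong* (± 0.74, SE). Among 15 models of shared, separate or absent rhythms, that with a rhythm shared by wild-type and *rx3 weak* and another in *rx3 strong* had a weight of 0.463 by the Bayesian information criterion, ahead of a rhythm common to all 3 genotypes with 0.314. On log2 CPM the common rhythm led with 0.637, and by the corrected Akaike criterion it led on the variance-stabilised values too, with 0.902. The level of *gls2* was thus low in *rx3 strong* under either scale, while the separation of its rhythm from that of wild-type depended on the scale and on the criterion.

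Under constant DEX the levels of *gls2* in both genotypes lay close to each other. Wild-type larvae held 54.5 CPM at ZT3, 34.9 at ZT9, 22.6 at ZT15 and 45.2 at ZT21. In *rx3 strong* larvae *gls2* reached 68.6, 43.4, 19.9 and 49.0 CPM at these times, higher than wild-type at 3 of 4 and lower at ZT15. The ranges overlapped, and the fitted log2 difference of 0.15 ± 0.13 (SE) did not pass edgeR's test (adjusted p = 0.615), whose calls covered 3.4% of all genes as higher and 4.4% as lower. In 6.89% of genes with a mean of at least 10 reads the DEX libraries of the genotypes did not overlap. The study had already reported *gls2* as restored by DEX from these libraries, so the closeness of the genotypes is no independent support. The genotype difference under DEX exceeded that without DEX by 2.01 ± 0.21 log2 units (SE, 16 libraries), a value given as a description because the untreated libraries enter it. At the same times *gls2* in *rx3 strong* was 10.95-fold (ZT3), 10.98-fold (ZT9), 11.07-fold (ZT15) and 13.97-fold (ZT21) higher with DEX than without. In wild-type these ratios were 2.24, 2.35, 5.39 and 2.79, and in both genotypes the ratio includes any difference between the kits.

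A daily rhythm of *gls2* common to both genotypes passed the test within the DEX libraries. The fitted peak-to-trough difference was 1.57 log2 units with a peak at 2.3 h after lights on (edgeR adjusted p = 0.0191), against 5.33% of all genes called. The study had reported *gls2* as restored by DEX from these same libraries, by a rule that asks for a rhythm in both genotypes. The genes were thus chosen with results of these libraries known, so the value is no independent support. The call was lost without the *rx3 strong* DEX library of ZT3 (adjusted p = 0.093) and without the wild-type DEX library of ZT15 (adjusted p = 0.086), with fitted values of 1.61 and 1.56, and over all settings the adjusted p ran from 0.0098 to 0.093. Fitted separately, the peak-to-trough difference was 1.32 log2 units in wild-type and 1.79 in *rx3 strong* (± 0.36, SE). By the Bayesian information criterion a shared rhythm had a weight of 0.524 and separate rhythms had 0.475. On log2 CPM separate rhythms led with 0.514, ahead of a shared rhythm with 0.483. The corrected Akaike criterion put the shared rhythm first on both scales, with 0.923 and 0.852. The liver markers also varied with time, in DEX-treated wild-type larvae from 7794.2 CPM at ZT3 to 4400.6 at ZT15 and 3926.2 at ZT21, and in DEX-treated *rx3 strong* larvae they ran from 9774.7 CPM at ZT3 to 4642.9 at ZT15 and 7075.8 at ZT21. Their part in the rhythm of *gls2* was not tested.

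The glutaminase *glsb* varied little in untreated wild-type and *rx3 strong* larvae. Its levels in wild-type were 42.8 CPM at ZT3, 44.9 at ZT9, 45.1 at ZT15 and 41.9 at ZT21. In *rx3 strong* they were 46.1, 45.7, 45.8 and 44.2 CPM, higher at all 4 times by at most 1.08-fold. These ranges overlapped, and the fitted log2 difference was 0.05 ± 0.08 (SE). In *rx3 weak* larvae *glsb* stood at 56.9, 57.8, 50.7 and 47.4 CPM, above all libraries of both other genotypes. Of all genes with a mean of at least 10 reads, 13.4% likewise did not overlap between *rx3 weak* and wild-type. That share was not computed for *rx3 strong* against *rx3 weak*. The fitted log2 difference of *rx3 weak* from wild-type was 0.28 ± 0.08 (SE), and that of *rx3 strong* from *rx3 weak* was -0.23.

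The daily course of untreated *glsb* was shallow. The highest library exceeded the lowest 1.08-fold in wild-type, 1.22-fold in *rx3 weak* and 1.04-fold in *rx3 strong*. The fitted peak-to-trough difference was 0.11 log2 units in wild-type, 0.32 in *rx3 weak* and 0.05 in *rx3 strong* (± 0.04, SE). By the Bayesian information criterion, separate rhythms in wild-type and *rx3 weak* with none in *rx3 strong* led with a weight of 0.512, ahead of 3 separate rhythms with 0.4. The corrected Akaike criterion instead gave a weight of 0.98 to a rhythm in *rx3 weak* alone.

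Under DEX, *glsb* was both higher and less steady. Wild-type larvae held 49.6 CPM at ZT3, 82.4 at ZT9, 96.6 at ZT15 and 64.7 at ZT21. In *rx3 strong* it stood at 77.2, 101.8, 86.4 and 86.4 CPM, higher than wild-type at ZT3, ZT9 and ZT21 and lower at ZT15. The fitted difference of 0.31 ± 0.15 log2 units (SE) did not pass the test (edgeR adjusted p = 0.286). At matched times *glsb* was higher with DEX than without by 1.16- to 2.14-fold in wild-type and 1.68- to 2.23-fold in *rx3 strong*. These ratios include any difference between the kits. The fitted peak-to-trough difference was 1.00 log2 units in wild-type with a peak at 13.7 h and 0.31 in *rx3 strong* with a peak at 10.8 h (± 0.22, SE), and the rhythm common to both, 0.61 log2 units, did not pass (edgeR adjusted p = 0.214). Over all genes the median peak-to-trough difference of a common rhythm was 0.61 log2 units under DEX and 0.32 without. The lowest level of *glsb* under DEX, wild-type at ZT3, rested on 456 reads. Under DEX *gls2* and *glsb* had their highest levels at different times, *gls2* at ZT3 and *glsb* at ZT9 or ZT15.

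The other 2 glutaminase genes place these values in their family. They and the other enzymes named below were listed with earlier results of these data known, so their p-values are no independent support. GLS2 (1 of 2) (ENSDARG00000002917), a second copy of the liver-type gene, stood at 8.4, 9.29, 11.5 and 17.01 CPM from ZT3 to ZT21 in wild-type and at 2.72, 2.79, 3.64 and 5.40 CPM in *rx3 strong*. These groups did not overlap, as was so for 15.1% of all genes with a mean of at least 10 reads. The log2 difference of -1.68 ± 0.14 (SE) passed edgeR's test (adjusted p = 2.7e-08), with a ratio of 3.08 to 3.32 at every time. In *rx3 weak* it was higher than wild-type by 0.55 ± 0.12 log2 units (edgeR adjusted p = 0.00356). Under DEX the difference was -0.56 ± 0.21 (edgeR adjusted p = 0.156), with 15.5 CPM in *rx3 strong* against 44.6 in wild-type at ZT3 and 30.2 against 31.3 at ZT21. The genotype difference of GLS2 (1 of 2) changed between the treatments by 1.09 ± 0.27 log2 units (SE), which missed the threshold (edgeR adjusted p = 0.0511). Over the settings this change ran from 0.933 to 1.444 log2 units and its adjusted p from 0.0011 to 0.49. It was called in 4 of 22 settings.

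In the untreated libraries the copies of GLS2 differed in the time of day. GLS2 (1 of 2) had a common rhythm there with a peak-to-trough difference of 0.97 log2 units and a peak at 18.9 h (edgeR adjusted p = 0.0012, against 16.7% of all genes called), whereas the fitted peaks of *gls2* lay near 3 h. Under DEX the common rhythm of GLS2 (1 of 2), 0.67 log2 units, did not pass (edgeR adjusted p = 0.316). The glutaminase gene *glsa* was lower in *rx3 strong* by 0.51 ± 0.11 log2 units (edgeR adjusted p = 0.00218) and in *rx3 weak* by 0.38 ± 0.11 (adjusted p = 0.0207). The second of these calls was lost without the *rx3 weak* libraries of ZT3 (adjusted p = 0.1) or ZT15 (0.073) and without the wild-type libraries of ZT15 (0.067) or ZT21 (0.088), by limma on the deposited log2 values (0.063) and with time left out of the model (0.053). Under DEX *glsa* differed by -0.15 ± 0.18 between the genotypes (edgeR adjusted p = 0.734).

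Levels of different genes can be compared only per length, as CPM divided by the length in kilobases that the count table gives. On this scale untreated wild-type larvae had 16.1 ± 0.6 CPM per kb of *glsb*, 16.7 ± 1.1 of *glsa*, 8.0 ± 4.5 of *gls2* and 6.7 ± 2.3 of GLS2 (1 of 2) (SD over 4 time points). The 4 glutaminases summed to 47.6 ± 4.4 CPM per kb in wild-type, 52.8 ± 5.0 in *rx3 weak* and 32.7 ± 1.7 in *rx3 strong*. Both copies of GLS2 made up 30.6 ± 7.0% of this sum in wild-type, 38.1 ± 4.4% in *rx3 weak* and 12.8 ± 2.8% in *rx3 strong*. Every *rx3 strong* library, with 9.7 to 16%, lay below the lowest wild-type library with 21.3%. Of single genes with a mean of at least 10 reads, 15.1% were likewise apart between these genotypes. *gls2* was selected on these untreated libraries, so the separation is no independent support. Under DEX the sums were 79.9 ± 1.9 CPM per kb in wild-type and 80.4 ± 5.8 in *rx3 strong*, with 56.0 ± 8.6% and 50.5 ± 3.9% from the copies of GLS2. These shares contain *gls2* and *glsb* themselves and are descriptions.

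**Figure D2:**
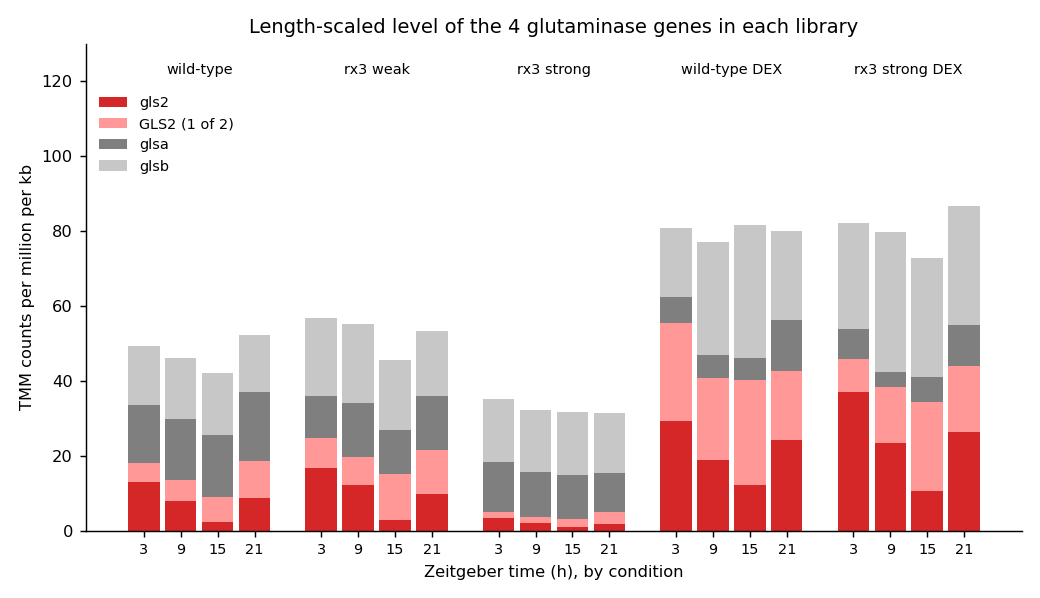
Stacked bars of the length-scaled level (TMM-scaled CPM per kb, y axis) of *gls2*, GLS2 (1 of 2), *glsa* and *glsb* in each of the 20 libraries, ordered by condition and Zeitgeber time (x axis). The copies of GLS2 (red shades) make up 12.8% of the bar on average in untreated *rx3 strong*, 30.6% in wild-type and 50.5 to 56.0% under DEX.

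The order of the conditions by the mean level of *gls2* was *rx3 strong* (2.1 ± 1.0 CPM per kb), wild-type (8.0 ± 4.5), *rx3 weak* (10.5 ± 5.8), wild-type DEX (21.1 ± 7.4) and *rx3 strong* DEX (24.3 ± 10.8). The ranges over the time points overlapped between all neighbours in this order. For *glsb* the order was wild-type (16.1 ± 0.6), *rx3 strong* (16.7 ± 0.3), *rx3 weak* (19.6 ± 1.8), wild-type DEX (26.95 ± 7.5) and *rx3 strong* DEX (32.3 ± 3.8). Among these neighbours the ranges of *rx3 strong* and *rx3 weak* were apart, and the share of all genes apart between these mutants was not computed.

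The glutamate decarboxylase *gad1a* had the lowest level of the 4 genes in untreated wild-type larvae, at 5.0 ± 0.6 CPM per kb (SD over 4 time points). Its levels in wild-type were 5.10 CPM at ZT3, 5.28 at ZT9, 6.04 at ZT15 and 6.45 at ZT21. In *rx3 strong* they were 6.37, 5.63, 6.94 and 7.61 CPM, and in *rx3 weak* 5.70, 7.70, 7.46 and 8.43 CPM. Both mutants were above wild-type at all 4 times, with overlapping ranges. The fitted log2 difference from wild-type was 0.20 ± 0.13 (SE) in *rx3 strong* and 0.35 ± 0.13 in *rx3 weak*, and that between the mutants was -0.14. The untreated values rested on 95 to 169 reads each.

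Of the other decarboxylases, *gad1b*, a second copy of the same enzyme form, was lower by 0.60 ± 0.09 log2 units (SE) in *rx3 strong* (edgeR adjusted p = 5.54e-05) and by 0.56 ± 0.09 in *rx3 weak* (adjusted p = 0.000132). *gad2*, the form that in mammals is concentrated at nerve terminals, was lower by 0.30 ± 0.08 in *rx3 strong* (edgeR adjusted p = 0.00907) and differed by -0.15 ± 0.08 in *rx3 weak* (adjusted p = 0.223). Under DEX *rx3 strong* differed from wild-type by -0.59 ± 0.18 for *gad1b* (edgeR adjusted p = 0.0756) and by -0.20 ± 0.21 for *gad2* (adjusted p = 0.684). Their change with treatment was -0.02 ± 0.22 and 0.07 ± 0.24 log2 units (edgeR adjusted p = 0.984 and 0.949). *gad1a* supplied 3.6 ± 0.3% of the length-scaled decarboxylase level in wild-type, 5.5 ± 0.8% in *rx3 strong* and 5.7 ± 0.4% in *rx3 weak* (SD over 4 time points). Among 7 markers of GABAergic neurons, which include *gad1b* and *gad2* but not *gad1a*, 4 were lower in *rx3 strong* and 3 in *rx3 weak*. Over all genes 10.2% were lower in *rx3 strong* and 7.63% in *rx3 weak*. The markers summed to 740.3 to 867.3 CPM in wild-type, 614.1 to 684.9 in *rx3 strong* and 590.1 to 716.8 in *rx3 weak*. In *rx3 strong* the lower markers included *gad1b* and *gad2*, already given above, and the vesicular GABA transporter *slc32a1* (-0.44 log2 units, edgeR adjusted p = 0.000327). The transcription factor genes *dlx1a* and *dlx5a* lay on the other side of 0, at 0.12 and 0.28 log2 units, and did not pass the test. Of the 5 general neuronal markers, *syt1a* and a copy of *snap25* were lower in both mutants, and the other 3 did not pass. The part of the missing retina in these differences was not tested.

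With DEX *gad1a* scattered more, and so did *gad1b* and *gad2*. In wild-type the highest library exceeded the lowest 2.58-fold for *gad1a*, 2.48-fold for *gad1b* and 2.1-fold for *gad2*. In *rx3 strong* these ratios were 2.53, 2.36 and 2.66. Without DEX they ran from 1.06 to 1.35 in these genotypes. In DEX-treated wild-type larvae *gad1a* stood at 2.72 CPM at ZT3, 4.02 at ZT9, 3.17 at ZT15 and 7.003 at ZT21. In *rx3 strong* it was 4.87, 1.93, 3.42 and 4.41 CPM, above wild-type at ZT3 and ZT15 and below it at ZT9 and ZT21. The wild-type value at ZT3 came from 25 reads (95% Poisson interval 16.2 to 36.9). The fitted genotype difference of -0.24 ± 0.30 log2 units (SE) did not pass the test (edgeR adjusted p = 0.759), nor did a common rhythm with a peak-to-trough difference of 1.03 (adjusted p = 0.258). The genotype difference of *gad1a* changed between treatments by -0.48 ± 0.34 log2 units. The common rhythms of *gad1b* and *gad2* under DEX, 1.18 and 1.04 log2 units, did not pass either (edgeR adjusted p = 0.0745 and 0.162). Over all genes the median of such a rhythm was 0.61 log2 units under DEX and 0.32 without. The neuronal markers varied over the DEX libraries too, with the lowest sum, 433.6 CPM, in the *rx3 strong* library of ZT9, where *gad1a* was lowest, and 899.5 CPM in the wild-type library of ZT21, where *gad1a* was highest. The courses were not the same in all libraries, since the wild-type library of ZT3 had the second-lowest *gad1a* with a marker sum of 797.5 CPM, and the highest sum, 956.1 CPM, stood in the *rx3 strong* library of ZT3. Their part in the scatter of *gad1a* was not tested.

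**Figure D3:**
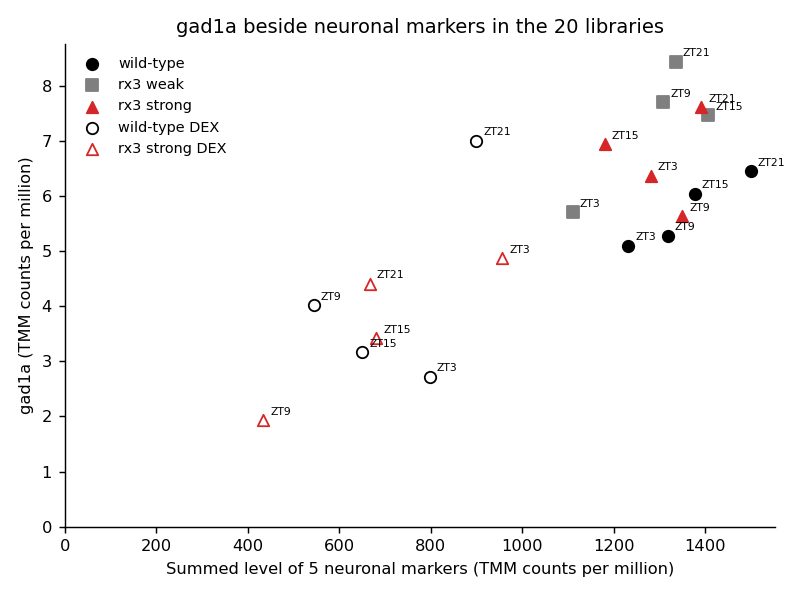
*gad1a* (TMM-scaled CPM, y axis) against the summed level of 5 neuronal markers (TMM-scaled CPM, x axis) in the 20 libraries, each point labelled with its Zeitgeber time. The DEX libraries (open symbols) lie at 433.6 to 956.1 CPM of the markers and 1.93 to 7.003 CPM of *gad1a*, the untreated ones at 1109.9 to 1499.3 and 5.10 to 8.43 CPM.

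Succinate semialdehyde dehydrogenase, the last enzyme of the GABA shunt, varied little. *aldh5a1* stood at 19.5 CPM at ZT3, 20.96 at ZT9, 21.9 at ZT15 and 18.8 at ZT21 in wild-type. In *rx3 strong* the values were 19.8, 20.3, 24.5 and 18.6 CPM, above wild-type at 2 times and below at 2, with a fitted log2 difference of 0.02 ± 0.09 (SE). In *rx3 weak* they were 15.3, 19.1, 17.7 and 17.99 CPM, below wild-type at all 4 times, with -0.22 ± 0.09 log2 units from wild-type and 0.24 between *rx3 strong* and *rx3 weak*. All these ranges overlapped. Under DEX *aldh5a1* was 17.4, 20.2, 20.8 and 24.1 CPM in wild-type and 22.3, 20.9, 22.2 and 27.9 CPM in *rx3 strong*, higher in the mutant at all 4 times. The difference of 0.18 ± 0.13 log2 units (SE) did not pass (edgeR adjusted p = 0.504), and the common rhythm of 0.35 log2 units did not either (adjusted p = 0.433). *aldh5a1* had the smallest change between treatments of the 4 genes, with a mean of 14.2 ± 1.0 CPM per kb in untreated and 14.5 ± 1.9 in DEX-treated wild-type, and 14.6 ± 1.8 and 16.3 ± 2.2 in *rx3 strong* (SD over 4 time points).

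Untreated *gad1a* and *aldh5a1* had small daily differences that were alike in size in the 3 genotypes. For *gad1a* the peak-to-trough difference was 0.27 log2 units in wild-type, 0.31 in *rx3 weak* and 0.34 in *rx3 strong* (± 0.19, SE), with fitted peaks at 18.5 h, 16.3 h and 20.1 h. For *aldh5a1* it was 0.20, 0.20 and 0.28 log2 units (± 0.18, SE), with peaks at 11.9 h, 13.4 h and 13.6 h. A rhythm common to all genotypes led by the Bayesian information criterion, with a weight of 0.404 for *gad1a* and 0.504 for *aldh5a1*, while the corrected Akaike criterion put the model with no rhythm first, with 0.438 and 0.478. All 6 of these differences were less than 2 times their standard error.

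Among the 18 other enzymes of glutamine, glutamate and GABA metabolism, 1 was higher and 6 were lower in *rx3 strong* than in wild-type, where 8.4% of all genes were higher and 10.2% lower. Their median log2 difference was -0.12, against 0.01 over all genes. Besides GLS2 (1 of 2), *glsa*, *gad1b* and *gad2* these were *glula*, a glutamine synthetase, which makes glutamine from glutamate and ammonia (-0.25 ± 0.08, edgeR adjusted p = 0.0246), *got2a*, a mitochondrial aspartate aminotransferase (-0.24 ± 0.08, adjusted p = 0.0362), and, as the one that was higher, the glutamate dehydrogenase *glud1a* (0.27 ± 0.07, adjusted p = 0.0127). The call of *glula* was lost without the ZT3 or ZT21 library of *rx3 strong* or the ZT3, ZT15 or ZT21 library of wild-type (adjusted p from 0.053 to 0.088). That of *glud1a* was lost without the ZT21 library of *rx3 strong* or the ZT15 or ZT21 library of wild-type (0.058 to 0.094), and that of *got2a* without any of the 8 libraries but the *rx3 strong* one of ZT15 (0.064 to 0.11). In *rx3 weak*, 4 of the 18 were higher and 2 lower, against 6.42% and 7.63% of all genes (median 0.05 against 0.02 over all genes). Those that were higher included the GABA transaminase *abat* (0.31 ± 0.08, edgeR adjusted p = 0.0121), which in *rx3 strong* differed by 0.06 ± 0.08 (adjusted p = 0.685). The call of *abat* was lost without the ZT3 or ZT9 library of either genotype, with an adjusted p of 0.061 to 0.092. Between the mutants none of the 18 was higher and 4 were lower in *rx3 strong*, against 4.68% and 7.08% of all genes. The list of 18 was drawn up with earlier results of these data known, so its calls are no independent support.

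**Figure D4:**
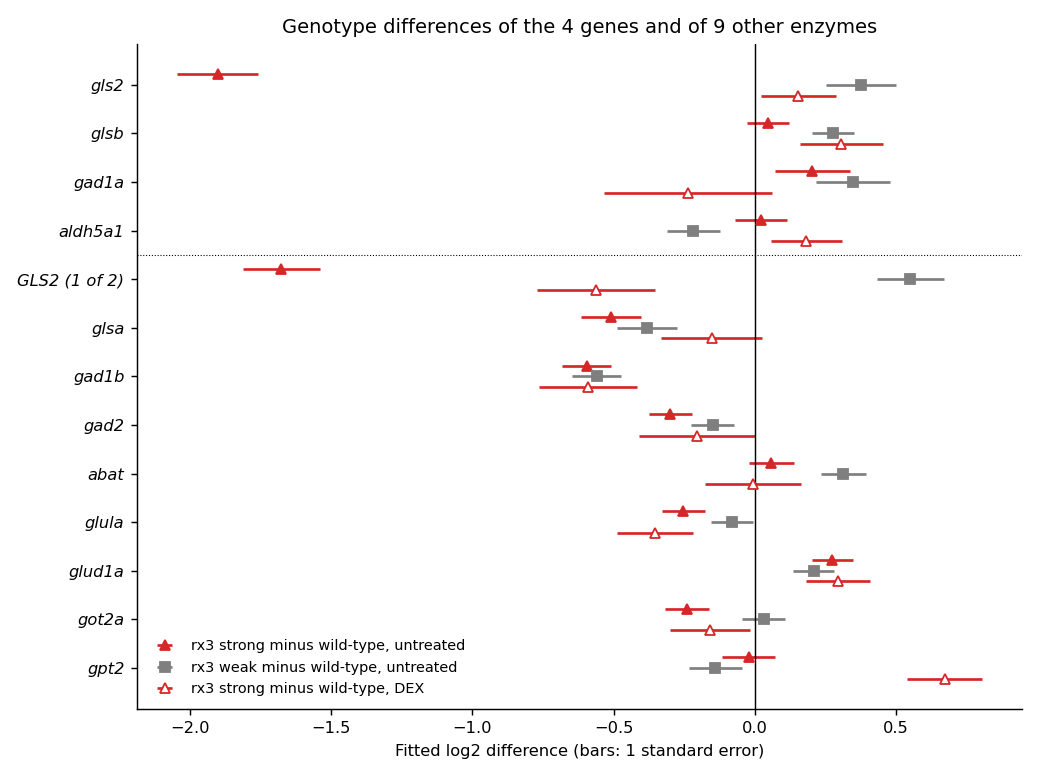
Fitted log2 differences between genotypes (x axis, bars 1 standard error) for the 4 genes (above the dotted line) and 9 other enzymes (y axis), in untreated *rx3 strong* and *rx3 weak* larvae against wild-type and in *rx3 strong* against wild-type under DEX. Untreated *rx3 strong* lies at -1.90 for *gls2* and -1.68 for GLS2 (1 of 2), and the other genes lie between -0.60 and 0.27.

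Under DEX 1 of the 18 enzymes was higher and none lower in *rx3 strong*, where 3.4% of all genes were higher and 4.4% lower. This count lay near the share of all genes. The enzyme called was *gpt2*, an alanine aminotransferase that makes glutamate and pyruvate from alanine and α-ketoglutarate (0.67 ± 0.13 log2 units, SE, edgeR adjusted p = 0.0135). It was at 44.5, 33.7, 33.4 and 47.8 CPM in *rx3 strong* and at 22.7, 21.2, 23.0 and 33.9 CPM in wild-type. This call was lost without the ZT9 library of either genotype (adjusted p = 0.059 in both cases). *gpt2* was also the 1 enzyme of the list whose genotype difference changed with treatment (0.66 ± 0.16, edgeR adjusted p = 0.045), where 1.41% of all genes were called as higher and 0.815% as lower, and that call was lost on leaving out any 1 of 11 libraries (adjusted p from 0.057 to 0.15). In the untreated libraries 8 of the 18 had a common rhythm, where 16.7% of all genes had one. Under DEX 1 of the 18 had, *glsa*, where 5.33% of all genes had one, so that this count lay at the share of all genes. Its rhythm under DEX had a peak-to-trough difference of 1.35 log2 units (edgeR adjusted p = 0.0393) and was lost without any of 6 libraries in turn.

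The 27 other genes of alanine, aspartate and glutamate metabolism in the study's list of metabolic genes had 7 higher and 6 lower in *rx3 strong*, against 8.4% and 10.2% of all genes, with a median of -0.04. In *rx3 weak* 4 were higher and 2 lower, against 6.42% and 7.63%, and in *rx3 strong* under DEX 4 were higher and 1 lower, against 3.4% and 4.4%. Between the mutants 4 were higher and 10 lower in *rx3 strong*, against 4.68% and 7.08% (median -0.12, against -0.003 over all genes). The change with treatment was called as higher in 4 and as lower in 0, against 1.41% and 0.815% (median 0.27, against -0.03). Over all genes the median log2 difference under DEX was 0.005, and over these 27 it was 0.14.

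The genes most like each of the 4 in the 12 untreated libraries were found by Pearson correlation of variance-stabilised values among 14793 named genes with a mean of at least 50 reads. These correlations are descriptions over libraries that share genotype and time of day, and picking the highest of 14793 favours a high r. For *gls2* they were *g6pca.2*, a catalytic subunit of glucose-6-phosphatase (r = 0.97), si:dkey-4e7.3 (0.97) and *nabp1a* (0.96). In the 8 DEX libraries the same pairs had r of 0.65, 0.96 and 0.36. For *glsb* the closest were si:ch211-191a16.2 (0.93), *cfd* (0.92) and MPDU1 (0.90), with r of 0.68, 0.475 and 0.65 under DEX. For *gad1a* they were CABZ01066502.1, B4GALNT4 and RARG, with r between 0.91 and 0.92 and between -0.13 and 0.32 under DEX. For *aldh5a1* they were PIAS2, ST6GALNAC3 and *adob*, with r between 0.92 and 0.94 and between -0.53 and 0.62 under DEX. The 4 genes themselves did not follow a common course, with r from -0.59 (*gls2* and *aldh5a1*) to 0.41 (*gls2* and *glsb*) without DEX and from -0.44 to 0.56 with DEX. Of the close partners named, only si:dkey-4e7.3 kept an r above 0.9 with its gene under DEX.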

How the data were processed

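RNA-Seq counts of 20 libraries of pooled zebrafish larvae, 1 per condition and time point, were analysed. The authors aligned single-end reads with STAR to Zv9, counted uniquely mapped reads per Ensembl gene with HTSeq, and deposited these raw counts together with a log2 table of variance-stabilised values, which was used here only for an alternative fit. Lengths came from the count table, and all per-sample columns matched a sample. Counts were fitted with edgeR (version 4.0.16, R 4.3.3) by its quasi-likelihood test with TMM scaling and its low-count filter, adjusting p-values by Benjamini-Hochberg over all genes tested: 12 untreated libraries (genotype and time point, 22845 genes, 6 residual degrees of freedom), 8 DEX libraries (23411 genes, 3 residual degrees of freedom), 16 libraries for the difference between treatments, and a 24 h cosine and sine for rhythms. Standard errors are the fitted difference divided by the square root of F. Harmonic fits used DESeq2 (version 1.42.0) variance-stabilised values, made separately for untreated and DEX libraries, with 15 and 5 models. Fits were tested on simulated data. At this number of libraries the Bayesian criterion often did not return the simulated rhythm model, so model weights are descriptions. The 4 genes and all lists were chosen with earlier results of these data known. The 4 genes were described in full; of 18 other enzymes, those past the threshold in rx3 strong against wild-type and all glutaminases, glutamate decarboxylases and GABA transaminase were named, and for each gene the 3 genes with the highest correlation. Alternatives were DESeq2 size factors, the DESeq2 Wald test, no low-count filter, limma (version 3.58.1) on the deposited log2 values, time left out, the libraries of 2 genotypes only, and each library left out in turn. Gene positions and sequences were not used here.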

Additional observations from a re-analysis of the deposited data

Results flagged for a closer look

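In 65 sets of 4 libraries (the 4 genes and 9 other named enzymes in 5 conditions), 2 held a library far from the other 3, where chance alone gives about 1 in 20 sets, and neither concerned the 4 genes. *gad2* in untreated wild-type larvae stood at 147.6 CPM at ZT3 and at 179.5 to 182.0 CPM at the other times. *gpt2* in DEX-treated wild-type larvae stood at 33.9 CPM at ZT21 and at 21.2 to 23.0 CPM at the other times.

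The genotype difference of *gpt2* was larger under DEX than without it by 0.66 log2 units (edgeR adjusted p = 0.045), with *rx3 strong* above wild-type at 4 of 4 times under DEX. Over the alternative settings its adjusted p ran from 0.0061 to 0.68, and it was called in 10 of 22.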

How the results depend on the processing

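Every fitted genotype difference of *gls2*, *glsb* and *gad1a* in the untreated libraries, and of *gls2*, *glsb* and *aldh5a1* under DEX, kept its sign with each library left out in turn, that of *gls2* in untreated *rx3 strong* running from -2.03 to -1.83. The differences near 0 changed sign, that of *aldh5a1* in untreated *rx3 strong* running from -0.04 to 0.06 and that of *gad1a* under DEX from -0.52 to 0.05. The common rhythm of *gls2* under DEX ran from 1.27 to 1.78 log2 units and lost its call without the libraries named above, with fewer samples tested. Counts of the 18 enzymes called ran, with 1 library left out, from 4 to 10 (7 with all libraries) in *rx3 strong* against wild-type, from 2 to 6 (6) in *rx3 weak*, from 1 to 6 (4) between the mutants, from 0 to 1 (1) under DEX, from 0 to 2 (1) for the change with treatment and from 0 to 1 (1) for the rhythm under DEX. The 4 time points of a condition carried the replicate numbers, so that leaving the replicate block out, that is time, left 1 call in *rx3 weak*, 1 between the mutants and 0 both under DEX and for the change with treatment. Leaving out time also ended the calls of GLS2 (1 of 2) and *abat* in *rx3 weak* (adjusted p = 0.31 and 0.29), of *glula* and *got2a* in *rx3 strong* (0.3 and 0.13) and of *gpt2* under DEX (0.18) and for the change with treatment (0.68). The DESeq2 Wald test gave 2 calls under DEX and 2 for the change with treatment, and no low-count filter gave 2 for each of these and for the rhythm under DEX. Over all genes, leaving out time reduced the calls from 4252 to 2078 in *rx3 strong*, from 3210 to 1652 in *rx3 weak*, from 2686 to 1059 between the mutants, from 1826 to 585 under DEX and from 523 to 35 for the change with treatment. limma on the deposited log2 values gave 796 calls under DEX and 349 for the change with treatment, and DESeq2 861 for the latter. With 1 library left out the calls fell to as few as 1085 under DEX, 213 for the change with treatment and 135 for the rhythm under DEX. The cause of these changes was not tested. By Spearman correlation another gene was closest to *gls2*, *glsb* and *aldh5a1*, with coefficients of 0.98, 0.94 and 0.96, while CABZ01066502.1 stayed closest to *gad1a*. Among the 14793 genes, the partners named above for *gls2* then ranked 48, 26 and 8, and those for *glsb* 55, 162 and 128. Those for *gad1a* ranked 1, 2 and 9, and those for *aldh5a1* 4, 29 and 2. The leading rhythm model changed with the corrected Akaike criterion for all 4 genes without DEX and for *glsb*, *gad1a* and *aldh5a1* with DEX. On log2 CPM the model leading by the Bayesian criterion changed for *gls2* with and without DEX and for *glsb* without DEX. Of the 4 genes, *gad1a* and *gls2* had the smallest counts, 25 and 38 reads.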
